A study of Mus musculus with 5 samples.

Results

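The genes described here are a glucose transporter and the enzymes that take glucose to lactate, measured in invariant natural killer T (iNKT) cells of mouse liver. They are 10 genes chosen by name: Slc2a3, Hk1, Gpi1, Aldoa, Tpi1, Gapdh, Pgk1, Eno1, Pkm and Ldha. Their symbols match 11 of the 55364 rows of the count tables, because Aldoa names a pair of rows. The second Aldoa row, ENSMUSG00000114515, had a count of 0 in all 5 libraries, so each gene is described by a single row. All 10 genes passed the filter on low counts and were among the 8468 tested.

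The 3 HCC libraries were made from livers with hepatocellular carcinoma. These came from male C57BL/6 wild-type (WT) mice injected once with 25 mg/kg of the liver carcinogen diethylnitrosamine (DEN) at the age of 15 days. The 2 healthy libraries were made from livers of WT mice given PBS, and mice were killed at an age of 38 to 42 weeks. iNKT cells are T cells with a nearly invariant receptor that reads lipids on CD1d, and in both groups they were sorted as cells positive for a CD1d tetramer loaded with PBS57 and for the T cell receptor beta chain. RNA was counted with a 3' mRNA method that reads the end of each transcript. The tissue of the HCC group is labelled as tumour-bearing liver, without saying which cells lay inside a tumour.

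Glycolysis splits glucose into pyruvate in the cytosol and yields ATP without oxygen. T cells raise glucose uptake and glycolysis when they are activated and rely more on mitochondrial oxidation at rest. Glucose enters through transporters of the Slc2a family, hexokinase traps it as glucose 6-phosphate, a preparatory phase spends ATP to form triose phosphates, and a payoff phase recovers ATP and NADH. Lactate dehydrogenase then turns pyruvate into lactate and restores NAD+.

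No member passed the test between HCC and healthy libraries. Of the 10 members, 0 were called higher and 0 lower in HCC by edgeR's quasi-likelihood test at a Benjamini-Hochberg adjusted p under 0.05, and the share of all 8468 genes called was 0% in either direction. DESeq2 called 0.048% of genes and limma-voom 0%, and neither called a member. The hexokinase Hk1 had the highest ratio of means, at 2.04 times the healthy level, and the triose phosphate isomerase Tpi1 the lowest, at 0.579 times. These were also the members whose groups lay farthest apart. Gapdh is the member most often used as a reference transcript. Of the counts summed over its own row and the rows of its pseudogenes, almost all lay in the pseudogene rows. The origin of those reads was not tested.

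One library stood apart. Across genes, the log2 levels of healthy 1 had a Pearson r of 0.767 to 0.82 with the other libraries, which had an r of 0.848 to 0.903 with each other (genes are not independent replicates). Healthy 1 was the highest or lowest of the 5 libraries in 60.6% of the genes tested, and in 6 of the 10 members. Log2 fold changes and list medians are therefore also given without it. Total counts were 1837653, 1718452 and 1883979 in HCC 1, 2 and 3, and 2224356 and 1821863 in healthy 1 and 2. Levels below are CPM (each library's counts scaled by its own total), where 1 count is 0.45 to 0.58 CPM and a count of 0 allows up to 1.35 to 1.75 CPM (3 counts per library). Intervals of a level are exact 95% binomial (Clopper-Pearson) intervals, and they cover counting error only, since reads and not distinct molecules were counted. The design text speaks of separate mice, but a number shared in their table names means that HCC 2 and HCC 3 may have come from 1 mouse. The p-values set the difference between the groups against the spread between libraries within a group, over these 5 libraries. With 2 healthy libraries that spread rests on little for any single gene.

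The labelled cell type was checked against T and iNKT cell markers. Their summed level was 5812 to 6731 CPM in HCC and 5279 to 6303 CPM in healthy libraries, and 14 of the 15 markers passed the filter. Klrb1c, which encodes NK1.1, split the libraries of both groups, with 464.7, 20.95 and 333.3 CPM in HCC 1, 2 and 3, against 382.1 and 5.49 CPM in healthy 1 and 2. HCC 2 and healthy 2 were the low libraries, and whether this moves with the members was not tested. Zbtb16, the transcription factor that defines the iNKT lineage, stood at 0 to 1.16 CPM in HCC and at 1.35 and 1.65 CPM in healthy libraries, within the level that a count of 0 allows. RNA of other cells also differed between the groups. The summed level of 24 hepatocyte markers was 162.2, 498.7 and 1070 CPM in HCC 1, 2 and 3, against 101.6 and 99.35 CPM in healthy 1 and 2. All 17 markers that passed the filter were fitted higher in HCC. Of these, 11 had an unadjusted p under 0.05 in edgeR, against 3.63% of all genes, and 0 were called. Apob was at 0 in all 5 libraries. Erythroid markers, mostly globins, summed to 7392, 17100 and 15380 CPM in HCC and 2975 and 2787 CPM in healthy libraries. All 5 that passed the filter were fitted higher in HCC with an unadjusted p under 0.05 in edgeR, and 0 were called. Slc4a1 was at 0 in all 5 libraries. B cell markers summed to 113.2 to 174.6 CPM in HCC and 35.97 to 124 CPM in healthy libraries, and the sums of NK cell, neutrophil and macrophage markers overlapped between the groups. The neutrophil sum was almost wholly Mmp9, the only 1 of its 12 markers that passed the filter. Mmp9 had 311.3, 475.4 and 587.1 CPM in HCC 1, 2 and 3, against 527.3 and 377.6 CPM in healthy 1 and 2. That overlap is thus the overlap of 1 gene. Hepatocytes and red cells use glycolytic enzymes too, and the part of such RNA in the values below was not tested. In such bulk samples fewer cells of a type and less RNA per cell cannot be told apart.

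The sequence of the members bears on how their counts can be read. Several of them have left processed pseudogenes, copies of the spliced mRNA inserted elsewhere in the genome, and a short read can fit gene and copy alike. The last 60 coding bases of Gapdh, stop codon included, are shown with those of 5 of its pseudogenes. They are written 5′ to 3′ in the sense of the gene from the mm10 genome with the GENCODE M21 annotation, and capitals mark bases of a copy that differ from the gene.
Gapdh, chr6:125162032-125162091, minus strand: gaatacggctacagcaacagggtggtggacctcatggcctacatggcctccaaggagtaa
Gm12671, chr4:91851668-91851727, minus strand: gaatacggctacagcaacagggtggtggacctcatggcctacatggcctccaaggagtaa
Gm5559, chr5:95862656-95862715, plus strand: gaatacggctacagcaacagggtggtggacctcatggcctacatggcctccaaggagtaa
Gapdh-ps15, chrY:38620725-38620784, plus strand: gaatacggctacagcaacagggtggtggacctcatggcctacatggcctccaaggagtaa
Gm2546, chr7:89608637-89608696, plus strand: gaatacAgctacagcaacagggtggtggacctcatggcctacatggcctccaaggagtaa
Gm4654, chr14:103370465-103370524, minus strand: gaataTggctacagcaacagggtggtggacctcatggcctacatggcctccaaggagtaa

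The first 3 Gapdh pseudogenes shown carry the same 60 bases as the gene. So do 22 of the 31 Gapdh pseudogenes in which the window was found with at most 12 differences. The others of the 31 have up to 12 differences, which was the limit set, so copies that diverge more are left out. Gm2546 and Gm4654, with 1 each, show the nearest kind of divergence. In all, 48 pseudogene rows had at least 50% of their 31-base words in the transcripts of a member: 41 matched Gapdh, 3 matched Pgk1, and 1 each matched Eno1, Gpi1, Pkm and Tpi1. The Pkm and Tpi1 pseudogenes held at most 1 count in any library. Over the last 300 bases of the annotated transcripts, where 3' reads fall, the share of 31-base words that also occur in other genes was 0% in Slc2a3 and Hk1. It was 18.38% in Tpi1, 26.36% in Ldha, 28.8% in Gpi1, 38.42% in Aldoa, 46.71% in Pgk1, 47.95% in Pkm, 52.89% in Gapdh and 54.4% in Eno1. These other genes include any annotated within a member's own locus, such as Gm49759 in Pkm, which had 0 counts in all 5 libraries. The shares thus do not measure the reads lost to copies. How reads that fit several places were counted is not given in the sources used here. Slc2a3 and Hk1 are thus the members whose ends are unique in the transcriptome.

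Glucose uptake and its first phosphorylation come first. Slc2a3 encodes GLUT3, a high-affinity glucose transporter of neurons and lymphocytes, and lies on the minus strand at chr6:122727809-122801640. It had 63.67, 87.87 and 64.23 CPM in HCC 1, 2 and 3, against 38.21 and 85.08 CPM in healthy 1 and 2. The groups overlapped, because healthy 2 lay near the highest HCC library and healthy 1 lay below all others. The log2 fold change of HCC over healthy was 0.09 (SE 0.41, 95% interval -0.84 to 1.01). Without healthy 1 it was -0.28, and the sign reversed under 2 of the 18 alternatives run.

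Hk1 encodes hexokinase 1, the isozyme that binds the outer mitochondrial membrane and serves most tissues, and lies on the minus strand at chr10:62268855-62379908. It had 47.89, 68.08 and 43.52 CPM in HCC 1, 2 and 3, from 88, 117 and 82 counts, against 20.23 and 31.84 CPM in healthy 1 and 2, from 45 and 58 counts. Each of the 3 HCC libraries exceeded both healthy ones, also after scaling by TMM, edgeR's correction for the makeup of each library. In CPM 12.8% of all tested genes lay so, and 10.6% after TMM scaling. The counting intervals of HCC 3 (34.6 to 54 CPM) and healthy 2 (24.2 to 41.2 CPM) overlapped. The means were 53.17 ± 13.1 CPM in HCC (SD, n = 3) and 26.03 ± 8.21 CPM in healthy libraries (SD, n = 2). The log2 fold change was 0.86 (SE 0.44, 95% interval -0.12 to 1.85), with a p of 0.0783 and an adjusted p of 0.9998 in edgeR's fit over all genes. It was 0.70 without healthy 1 and 1.09 without healthy 2. Among all genes tested, 5% had a fold change above 1.52 and 25% above 0.49 on the log2 scale, and Hk1 lay between these bounds.

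The preparatory phase followed with Gpi1, Aldoa and Tpi1. Gpi1, which turns glucose 6-phosphate into fructose 6-phosphate (chr7:34201330-34230336, minus strand), had 125.2, 116.4 and 152.9 CPM in HCC 1, 2 and 3, against 124.1 and 97.7 CPM in healthy 1 and 2. HCC 3 was highest and healthy 2 lowest, with the other 3 libraries close together. HCC over healthy gave a log2 fold change of 0.04 (SE 0.38), and without healthy 1 it was 0.41.

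Aldoa encodes aldolase A, which cuts fructose 1,6-bisphosphate into the 2 triose phosphates (chr7:126795234-126800751, minus strand). It had 340.1, 396.9 and 322.2 CPM in HCC 1, 2 and 3, against 264.8 and 320.6 CPM in healthy 1 and 2. Each of the 3 HCC libraries exceeded both healthy ones, as did 12.8% of all tested genes in CPM and 10.6% after TMM scaling. However, HCC 3 (interval 297 to 349 CPM) and healthy 2 (295 to 348 CPM) could not be told apart by counting error alone. Its log2 fold change was 0.09 (SE 0.33, 95% interval -0.64 to 0.82), and without healthy 1 it was 0.11. Aldoa had the smallest SE of the members.

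Tpi1 encodes triose phosphate isomerase, which interconverts these trioses (chr6:124810586-124814296, minus strand). It had 40.81, 37.24 and 26.01 CPM in HCC 1, 2 and 3, from 75, 64 and 49 counts, against 76.43 and 43.36 CPM in healthy 1 and 2, from 170 and 79 counts. All 3 HCC libraries lay below both healthy libraries in CPM and after TMM scaling, as did 5.46% of all tested genes in CPM and 8.44% after TMM scaling. Healthy 1 was far above the other 4 libraries, while HCC 1 (interval 32.1 to 51.2 CPM) and healthy 2 (34.3 to 54 CPM) were close. The means were 34.69 ± 7.73 CPM in HCC (SD, n = 3) and 59.89 ± 23.4 CPM in healthy libraries (SD, n = 2). The log2 fold change was -1.03 (SE 0.47, 95% interval -2.08 to 0.02), with a p of 0.0544 and an adjusted p of 0.9998 in edgeR's fit over all genes. It was -0.35 without healthy 1 and -1.43 without healthy 2. With healthy 1 as the sole healthy library, which is then assumed to vary like the HCC libraries, the adjusted p from edgeR was 0.0959, the lowest of any member under the alternatives run. Spsb2, which overlaps Tpi1 on the other strand, had at most 4 counts in any library.

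**Figure D1:**
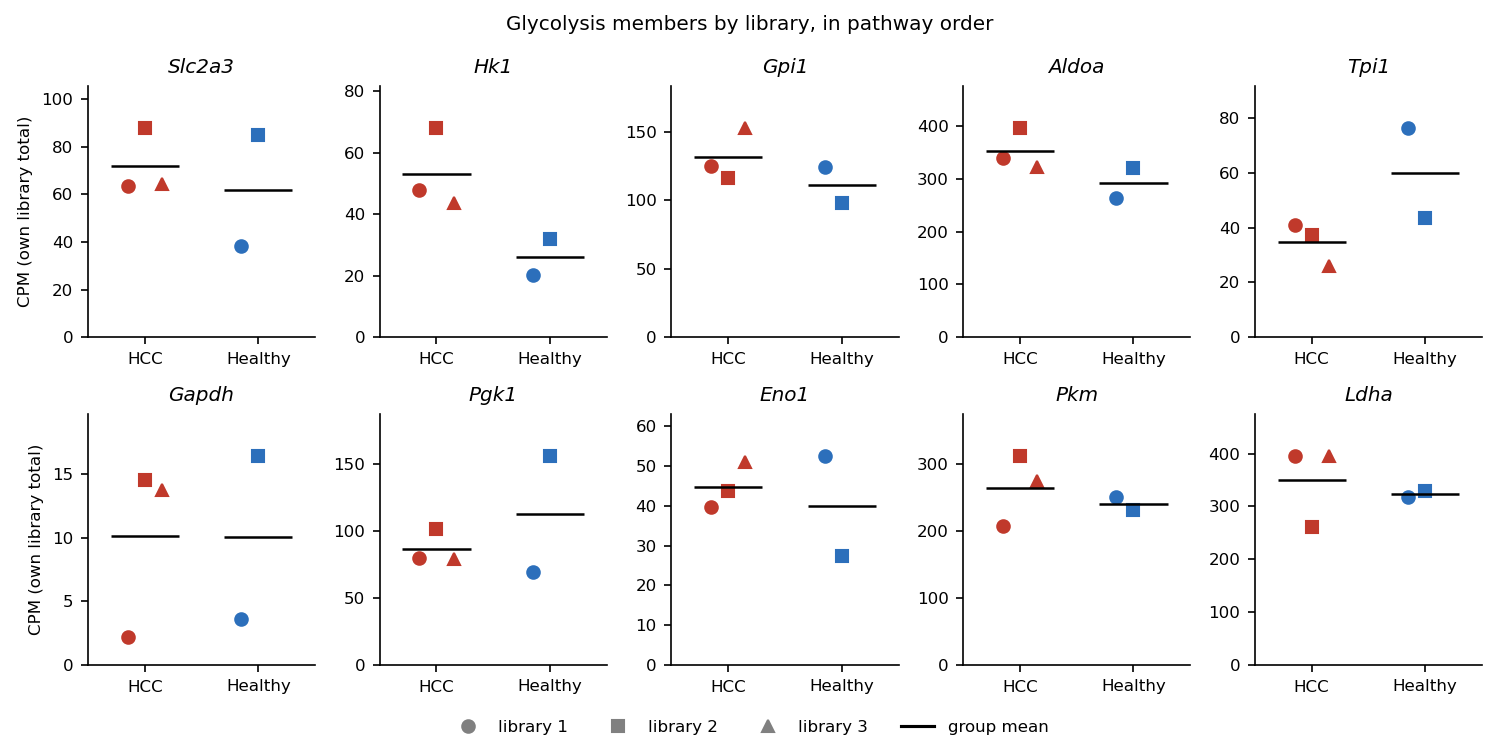
Each panel shows a member's level in CPM of the library total, with the 3 HCC libraries left of the 2 healthy ones and a line at the group mean, on axes that start at 0. Hk1 and Aldoa lie above both healthy libraries in all 3 HCC libraries, Tpi1 lies below both, and the groups of the other 7 members overlap.

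The payoff phase begins with Gapdh, which oxidises glyceraldehyde 3-phosphate and reduces NAD+ (chr6:125161715-125166467, minus strand). Its own row held 4, 25 and 26 counts in HCC 1, 2 and 3, and 8 and 30 counts in healthy 1 and 2. These counts are 2.18, 14.55 and 13.8 CPM in HCC and 3.6 and 16.47 CPM in healthy libraries. HCC 1 and healthy 1 were low and the other 3 libraries high, so the groups overlapped. In edgeR's fit its log2 fold change was -0.07 with an SE of 0.97, the largest SE of the members. It was -0.73 without healthy 1 and 1.19 without healthy 2.

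With its 41 pseudogene rows, 37 of which held counts, Gapdh summed to 419.6, 540 and 920.4 CPM in HCC 1, 2 and 3, against 682.9 and 982 CPM in healthy 1 and 2. The gene's own row held 0.519%, 2.69% and 1.5% of these counts in HCC and 0.527% and 1.68% in healthy libraries. Healthy 2 was highest and HCC 1 lowest, with HCC 3 above healthy 1. The log2 fold change of the sum was -0.56 (SE 0.42, 95% interval -1.49 to 0.37, edgeR adjusted p 0.9999). It was -0.66 without healthy 1, and it stayed below 0 under all 17 alternatives run on it, with -0.33 the nearest to 0. A read counted in several rows would enter this sum more than once, and this was not tested.

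Among the pseudogene rows, Gm5559 had 38.64, 68.67 and 98.2 CPM in HCC 1, 2 and 3, against 58.44 and 99.35 CPM in healthy 1 and 2. Gm12671 had 22.86, 22.11 and 52.02 CPM in the HCC libraries, against 45.41 and 35.13 CPM in healthy libraries. Gapdh-ps15 had 10.34, 19.79 and 22.82 CPM in the HCC libraries, against 7.19 and 51.05 CPM in healthy libraries. Rows with the same printed bases thus held different counts and ordered the libraries differently. Of the 26 Gapdh pseudogene rows with at least 10% of the counts of the Gapdh row, 22 had overlapping groups in CPM, 3 lay lower in all HCC libraries (Gm10291, Gm12070 and Gm2574) and 1 higher (Gm2445), against 5.46% of all genes lower and 12.8% higher. After TMM scaling 5 lay lower, with Gm2606 and Gm5138 added, and 1 higher, against 8.44% and 10.6% of all genes. Those shares cover only genes that passed the filter on low counts, which Gm2445, Gm5138 and Gm2451 did not. Rows of such similar sequence are also not independent of each other. Gm10291 had 20.68, 23.86 and 37.16 CPM in the HCC libraries, against 52.6 and 48.85 CPM in healthy libraries. Its log2 fold change was -1.08 (SE 0.47), with an edgeR adjusted p of 0.9998, and -0.86 without healthy 1.

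Pgk1, whose enzyme makes the first ATP of the pathway (chrX:106187100-106203699, plus strand), had 79.99, 101.3 and 79.09 CPM in HCC 1, 2 and 3, against 69.23 and 156.4 CPM in healthy 1 and 2. The HCC libraries lay between the 2 healthy ones. The log2 fold change was -0.51 (SE 0.39, 95% interval -1.38 to 0.36). It was -0.88 without healthy 1 and 0.03 without healthy 2, so its size and sign depended on which healthy library was kept. The row of Pgk1-rs7 had 70.74, 107.7 and 70.06 CPM in the HCC libraries, against 38.21 and 156.4 CPM in healthy libraries, and in healthy 2 both rows held 285 counts. Gm5537, another Pgk1 pseudogene, had 44.62, 50.05 and 29.72 CPM in the HCC libraries, against 36.86 and 82.33 CPM in healthy libraries. The Pgk1 row held 40.7%, 38.1% and 44.1% of the summed counts of gene and pseudogenes in HCC, and 48% and 39.3% in healthy libraries. The summed level had a log2 fold change of -0.47 (SE 0.41), which was -0.94 without healthy 1 and 0.27 without healthy 2.

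Eno1, the enolase that forms phosphoenolpyruvate (chr4:150236721-150248879, plus strand), had 39.72, 43.64 and 50.96 CPM in HCC 1, 2 and 3, against 52.6 and 27.44 CPM in healthy 1 and 2. The HCC libraries again lay between the healthy ones. With a log2 fold change of -0.07 (SE 0.49) the difference was small beside its error, and without healthy 1 it was 0.68. Its pseudogene Gm4735 had 139.9, 125.1 and 154.5 CPM in the HCC libraries, against 170.8 and 113.6 CPM in healthy libraries. The Eno1 row held 22.1%, 25.9% and 24.8% of the counts of both in HCC, and 23.5% and 19.5% in healthy libraries. The sum had a log2 fold change of -0.20 (SE 0.40), and of 0.36 without healthy 1. Eno1b, an intron-poor protein-coding copy, had 54.42, 49.46 and 56.26 CPM in the HCC libraries, against 67.88 and 35.13 CPM in healthy libraries. All 3 rows had their highest level in healthy 1 and their lowest in healthy 2.

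**Figure D2:**
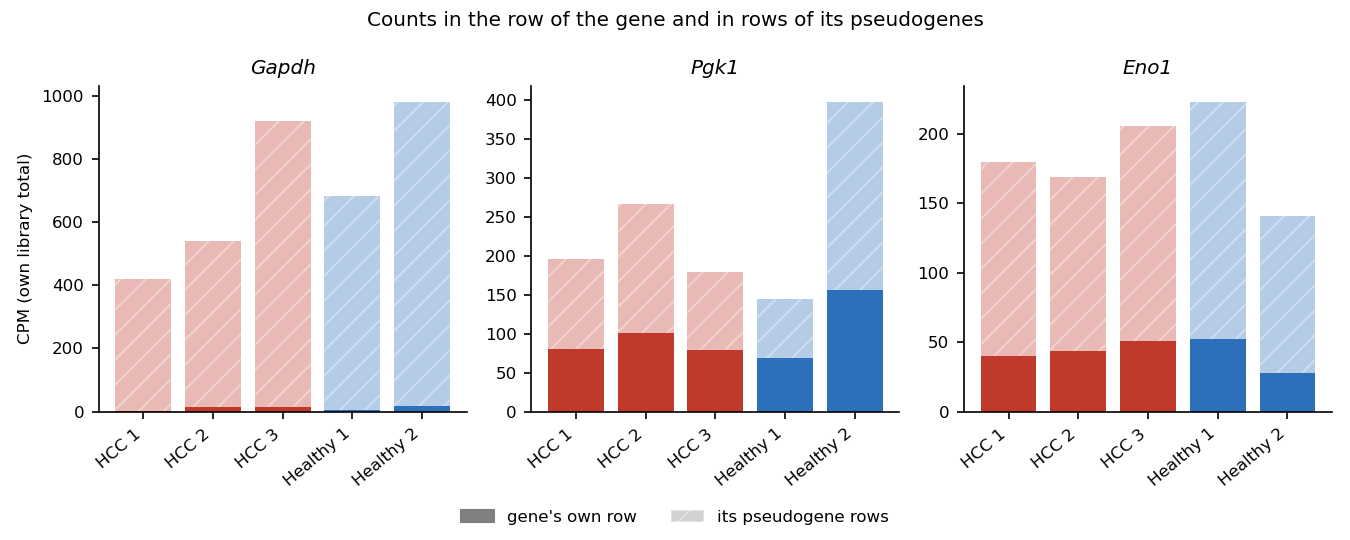
Bars give the CPM of the library total in the gene's own row (solid) and in rows of its pseudogenes (hatched) for Gapdh, Pgk1 and Eno1, in 3 HCC and 2 healthy libraries. The Gapdh row is at most 2.69% of its bar, whereas the Pgk1 row is 38.1 to 48% and the Eno1 row 19.5 to 25.9%.

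Pkm encodes the muscle-type pyruvate kinase, whose splice forms M1 and M2 share 1 row here, and forms pyruvate and ATP (chr9:59656368-59679375, plus strand). It had 207.9, 313.1 and 274.4 CPM in HCC 1, 2 and 3, against 250.9 and 231.6 CPM in healthy 1 and 2. HCC 1 was lowest and HCC 2 highest, and the healthy libraries lay between them. A log2 fold change of -0.06 was fitted (SE 0.36, 95% interval -0.86 to 0.73), and without healthy 1 it was 0.16.

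Ldha, the subunit of lactate dehydrogenase that favours lactate formation (chr7:46841475-46855627, plus strand), had 396.2, 261.3 and 394.9 CPM in HCC 1, 2 and 3, against 318.7 and 329.9 CPM in healthy 1 and 2. HCC 2 was low and the other HCC libraries high, with the healthy libraries between them. The means were 350.8 ± 77.5 CPM in HCC (SD, n = 3) and 324.3 ± 7.88 CPM in healthy libraries (SD, n = 2). For Ldha the log2 fold change was -0.06 (SE 0.37, 95% interval -0.89 to 0.77), and without healthy 1 it was 0.07.

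**Figure D3:**
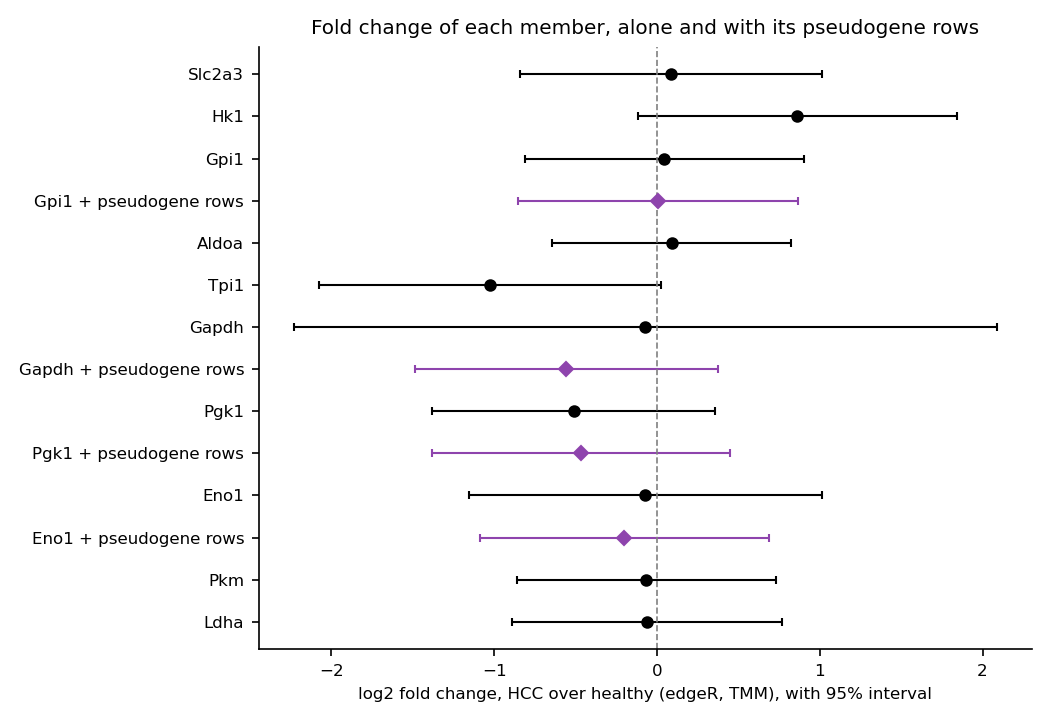
Points give the log2 fold change of HCC over healthy from edgeR with its 95% interval for each member (circles) and for the 4 members summed with their pseudogene rows (diamonds). Every interval includes 0, and those of Hk1 and Tpi1 come nearest to leaving it out, on opposite sides.

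Across the list, 4 of 10 members had a fitted fold change above 0 and 6 below, as did 49.7% of all genes. None of the 10 had an unadjusted p under 0.05 in edgeR, against 3.63% of all genes (2.15% higher and 1.48% lower in HCC). The median log2 fold change was -0.06 in the members and 0.00 over all genes tested, and without healthy 1 it was 0.09 in the members and 0.06 over all genes. With library totals in place of TMM, 8 members were above 0 and 2 below. The median of all genes was then 0.17, and relative to it 4 members were above and 6 below. In CPM the groups did not overlap in 3 of 10 members, 2 higher (Hk1 and Aldoa) and 1 lower (Tpi1) in HCC, against 18.3% of all genes in either direction.

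Summed over the 10 members, the level was 1344, 1440 and 1422 CPM in HCC 1, 2 and 3, against 1219 and 1340 CPM in healthy 1 and 2. The HCC libraries lay above both healthy ones, HCC 1 narrowly, and the ratio of means was 1.10. After TMM scaling the sums were 1306, 1299 and 1437 in HCC and 1484 and 1307 in healthy libraries, the groups overlapped and the ratio was 0.966. The scaling thus set the direction. With pseudogene rows added, the sums were 2024, 2260 and 2595 CPM in HCC and 2155 and 2670 CPM in healthy libraries, again with overlap, at a ratio of 0.951. By step, Slc2a3 and Hk1 summed to 111.6, 156 and 107.8 CPM in HCC and 58.44 and 116.9 CPM in healthy libraries (ratio 1.43). Gpi1, Aldoa and Tpi1 summed to 506.1, 550.5 and 501.1 CPM in HCC and 465.3 and 461.6 CPM in healthy libraries (ratio 1.12), without overlap. The 4 payoff enzymes summed to 329.8, 472.5 and 418.3 CPM in HCC and 376.3 and 432 CPM in healthy libraries (ratio 1.01). After TMM scaling the groups of each of these 3 sums overlapped, and the ratios were 1.29 for Slc2a3 and Hk1, 0.98 for Gpi1, Aldoa and Tpi1 and 0.887 for the payoff enzymes. The scaling thus turned the direction in the preparatory and payoff sums. No step was tested as a sum.

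Other genes of glucose metabolism were read from 6 further lists. In none of them was a gene called by edgeR at an adjusted p under 0.05. Other glycolytic steps and isozymes had 5 of 20 genes tested, 3 fitted above and 2 below 0, with a median log2 fold change of 0.41 (0.14 without healthy 1). The most abundant were Pgam1, the phosphoglycerate mutase, and Pfkp, the platelet-type phosphofructokinase. Pgam1 had 81.63, 73.9 and 60.51 CPM in the HCC libraries, against 20.23 and 81.24 CPM in healthy libraries, with healthy 1 far below the rest. Pfkp had 58.77, 64.01 and 67.94 CPM in the HCC libraries, against 77.78 and 54.34 CPM in healthy libraries. The log2 fold changes were 0.41 and -0.27, and without healthy 1 they were -0.20 and 0.20. Pklr, a pyruvate kinase typical of hepatocytes, and Slc2a2, their main glucose transporter, were chosen after their values were seen and had 0 counts in all 5 libraries. Hk2, the hexokinase often induced in activated T cells and chosen here after its values were seen, had 1 count in HCC 1 and 0 in the other 4 libraries, which is below what 3 counts allow.

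Carriers of glucose, lactate and pyruvate had 6 of 11 genes tested, 3 fitted above and 3 below 0, with a median of -0.02 (0.56 without healthy 1). Bsg, the chaperone of lactate carriers, had 47.89, 50.63 and 54.14 CPM in the HCC libraries, against 70.58 and 25.25 CPM in healthy libraries. Mpc2, a subunit of the mitochondrial pyruvate carrier, had 19.59, 32.59 and 42.99 CPM in the HCC libraries, against 34.62 and 23.6 CPM in healthy libraries. Both had healthy libraries on either side of at least 1 HCC library. Slc2a1 encodes GLUT1, the main glucose transporter of activated T cells, and was chosen after its values were seen. It had 16.33, 25.6 and 13.8 CPM in the HCC libraries, against 5.84 and 10.98 CPM in healthy libraries. All 3 HCC libraries lay above both healthy ones, as did 12.8% of all tested genes in CPM and 10.6% after TMM scaling. The log2 fold change of Slc2a1 was 0.98 (SE 0.65, edgeR adjusted p 0.9998), and 0.71 without healthy 1.

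Regulators of glycolytic flux had 16 of 26 genes tested, 11 fitted above and 5 below 0, with a median of 0.29 (0.56 without healthy 1), and 1 had an unadjusted p under 0.05. In CPM the HCC libraries all lay higher than the 2 healthy ones in 5 of the 16, and all lay lower in 1, against 12.8% and 5.46% of all genes. After TMM scaling it was 4 and 1, since Pgm1 then overlapped, against 10.6% and 8.44% of all genes. Txnip, which restrains glucose uptake, had 88.16, 248.5 and 82.27 CPM in the HCC libraries, against 31.02 and 157.5 CPM in healthy libraries. Max, the partner of Myc, had 162.2, 68.67 and 62.63 CPM in the HCC libraries, against 39.56 and 126.8 CPM in healthy libraries. In both the libraries of a group spread more widely than the group means differed. A pair of regulators was singled out after the values were seen. Dlat, a core subunit of the pyruvate dehydrogenase complex that feeds pyruvate into mitochondrial oxidation, had 11.43, 28.51 and 22.82 CPM in the HCC libraries, against 1.35 and 4.39 CPM in healthy libraries. It came from 21, 49 and 43 counts in HCC and from 3 and 8 counts in healthy libraries. Its log2 fold change was 2.72 (SE 0.82, p 0.00773, edgeR adjusted p 0.9998), and 2.19 without healthy 1. The other subunits of the complex on this list, also read after the values were seen, did not share this direction. Pdha1 had a log2 fold change of -0.33 (SE 0.52) and Pdhb of -0.54 (SE 0.45), with overlapping groups in both. Pfkfb3, which makes the activator of phosphofructokinase, had 10.88, 15.71 and 10.62 CPM in the HCC libraries, against 18.88 and 16.47 CPM in healthy libraries. It was the 1 regulator below both healthy libraries in all HCC libraries, with a log2 fold change of -0.72 (SE 0.59) and of -0.45 without healthy 1.

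All 8 genes of the pentose phosphate pathway, which branches off at glucose 6-phosphate, were tested, with 3 fitted above and 5 below 0, a median of -0.11 (0.02 without healthy 1) and 1 unadjusted p under 0.05. Taldo1, the transaldolase, had 239.4, 297.4 and 189.5 CPM in the HCC libraries, against 223 and 263.5 CPM in healthy libraries, with overlap. Pgls, the lactonase of the oxidative branch, had 71.29, 114.1 and 73.78 CPM in the HCC libraries, against 160 and 91.66 CPM in healthy libraries, and healthy 1 was the highest. The gene with the low p was Rpe, ribulose-phosphate epimerase, which was also chosen after its values were seen. It had 20.13, 43.64 and 13.27 CPM in the HCC libraries, against 5.84 and 6.59 CPM in healthy libraries, with a log2 fold change of 1.82 (SE 0.70, p 0.0258, edgeR adjusted p 0.9998), and 1.89 without healthy 1.

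Gluconeogenesis, the reverse route run mainly by hepatocytes, had 3 of 8 genes tested, with a median of 1.51 (0.54 without healthy 1). G6pc3, a glucose 6-phosphatase found in many tissues, had 4.9, 8.73 and 14.86 CPM in the HCC libraries, against 17.98 and 9.88 CPM in healthy libraries. Slc37a4, the glucose 6-phosphate carrier of the endoplasmic reticulum, had 5.99, 6.98 and 6.9 CPM in the HCC libraries, against 1.35 and 2.74 CPM in healthy libraries. These levels rest on few counts. Targets of HIF-1, the factor that raises glycolytic genes when oxygen is low, had 9 of 18 genes outside glycolysis tested, 5 fitted above and 4 below 0, with a median of 0.09 (-0.11 without healthy 1). Higd1a had 87.07, 101.3 and 55.2 CPM in the HCC libraries, against 41.81 and 118 CPM in healthy libraries. Bnip3l, a mitophagy receptor, had 41.36, 70.99 and 33.97 CPM in the HCC libraries, against 36.86 and 66.42 CPM in healthy libraries. The healthy libraries lay far apart in both.

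**Figure D4:**
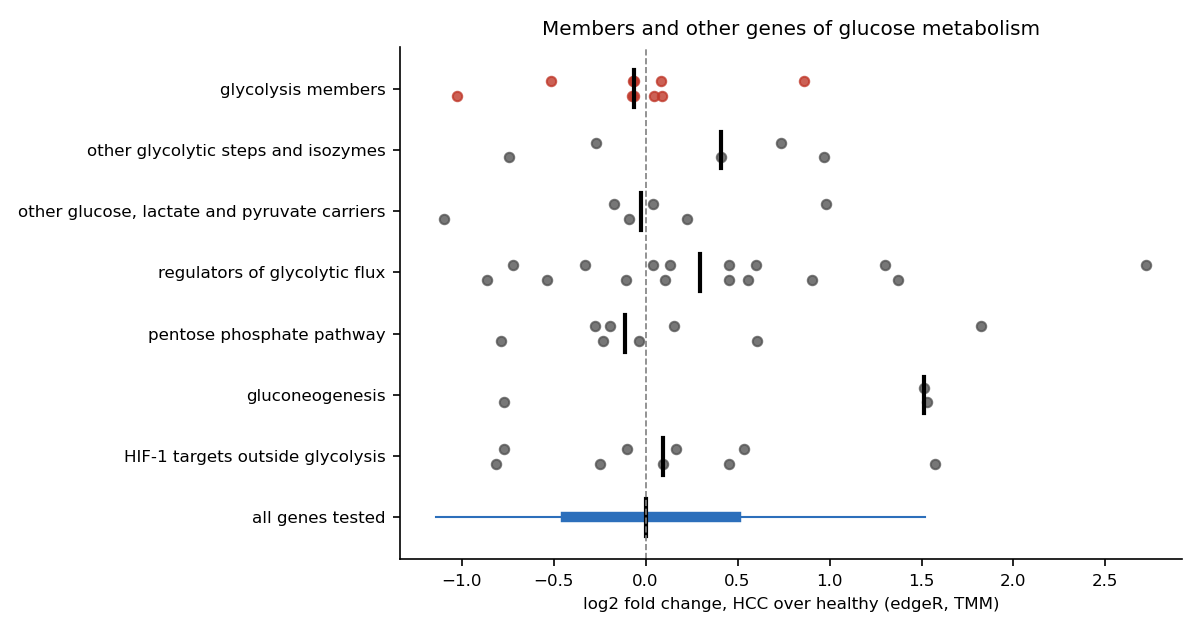
Each row plots log2 fold changes of HCC over healthy from edgeR for the tested genes of a list, with a bar at the median, and the lowest row gives the median, the middle 50% (box) and the 5 to 95% range (line) of all 8468 genes. The members lie close to 0 apart from Hk1, Tpi1 and Pgk1, and Dlat, at 2.72, lies farthest from 0.

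The genes whose profile over the 5 libraries was most like the summed member level were Ccnd2, Hdgf and Ubl5. They had the smallest Euclidean distances between centred log2 CPM profiles among 686 other protein-coding genes whose mean level reached 100 CPM. Ccnd2, a D-type cyclin, had 815.2, 879.3 and 890.1 CPM in the HCC libraries, against 778.2 and 857.4 CPM in healthy libraries. The distances were 0.0709 for Ccnd2, 0.0933 for Hdgf and 0.0946 for Ubl5. All 3 varied little between libraries, as did the sum of the members.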

How the data were processed

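RNA of sorted hepatic iNKT cells was made into QuantSeq 3' mRNA libraries for Ion Torrent, per the labels' protocols. The authors deposited 1 table per library of raw counts, whole numbers not normalized, in rows of Ensembl IDs. The submitters' processing notes name HISAT2, Bowtie2, bcl2fastq, edgeR, limma, DESeq and DESeq2 and the build mm10, without roles. The counting program, annotation and strand setting are not given in the sources used here. GENCODE M21 gave symbols to 55104 of 55364 IDs, and rows without one held 0.763 to 1.08% of the counts. Pseudogene rows held 31.7 to 38.5%. CPM were computed from each library's total.

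The counts of all 5 libraries were fitted with edgeR 4.0.16 in R 4.3.3 (filterByExpr by group, TMM, quasi-likelihood F test between the groups, Benjamini-Hochberg over 8468 genes, threshold 0.05). TMM factors were 1.038, 1.12 and 0.9996 in HCC 1, 2 and 3, and 0.8299 and 1.036 in healthy 1 and 2. The script was tested on simulated data. Pseudogene rows sharing at least 50% of their 31-base words with a member were also added to it. All members are named; other lists give their 2 tested genes with the highest mean, and copies appear if they hold at least 10% of the member's counts. Genes of glucose metabolism whose levels are given outside these rules are marked as chosen after their values were seen. Single cell type markers were named without such a rule. The members and lists were chosen with earlier results of these data known. Alternatives were DESeq2 size factors, library totals, other filters, DESeq2 1.42.0, limma-voom 3.58.1, the replicate number as a block, each library left out, HCC 2 and 3 summed, and other sets of rows. A wider pseudogene set and protein-coding copies were added after seeing the data.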

Additional observations from a re-analysis of the deposited data

How the results depend on the processing

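With 5 libraries and a biological coefficient of variation of 53.8%, SEs of the members' log2 fold changes were 0.328 to 0.965. Members called stayed at 0 under all 18 alternatives run, and the median log2 fold change of the members lay between -0.15 and 0.15. Hk1 and Aldoa kept a positive sign under all 18 (0.70 to 1.09 and 0.025 to 0.27) and Tpi1 a negative one (-1.43 to -0.35). Slc2a1, Dlat, Pfkfb3, Rpe and Gm10291, examined after seeing the data, kept their sign under all alternatives that kept them. In these genes, and in Hk1, Aldoa and Tpi1, the groups did not overlap in CPM or after TMM scaling. Leaving out a library or refitting could thus hardly turn the sign, and the kept signs are not separate support. Causes of the changes below were not tested.

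Over all genes, 53 were called without a filter on low counts, 8 by the DESeq2 Wald test (432 at an unadjusted p under 0.05), 0 by limma-voom (208) and 0 to 196 with a library left out, where 196 (102 higher, 94 lower) is without healthy 2. The summed ratio of the members, 1.10, was 0.965 with DESeq2 size factors, 0.951 with pseudogene rows, 0.938 with those sharing 10% of words, 0.949 with protein-coding copies, and 1.05 to 1.15 with a library left out, highest without healthy 2.

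Signs reversed in these log2 fold changes. With library totals only, Gapdh was 0.029, Eno1 0.16 (0.018 with its pseudogene row), Pkm 0.14, Ldha 0.11, Mpc2 0.12, Bsg 0.083 and Higd1a 0.025. With limma-voom, Eno1 was 0.049 and Bsg 0.088. With protein-coding genes only, Gpi1 was -0.023 (-0.067 with its pseudogene row). Gpi1 with that row was -0.0098 with a filter of 10 CPM in 2 libraries and -0.0096 with HCC 2 and 3 summed.

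Leaving out 1 library at a time gave both signs in several genes. Extremes came without healthy 1 and without healthy 2 in Slc2a3 (-0.28 and 0.61), Gpi1 (0.41 and -0.20; 0.37 and -0.24 with its pseudogene row), Gapdh (-0.73 and 1.19), Pgk1 (-0.88 and 0.030; -0.94 and 0.27 with pseudogene rows), Eno1 (0.68 and -0.52; 0.36 and -0.56 with its pseudogene row), Pkm (0.16 and -0.22), Pfkp (0.20 and -0.58), Pgam1 (-0.20 and 1.54), Bsg (0.98 and -0.76), Txnip (-0.24 and 1.84) and Higd1a (-0.58 and 0.65). Ldha ranged from -0.18 without HCC 3 to 0.15 without HCC 2, Mpc2 from -0.41 to 0.40, Max from -0.45 to 1.03 and Bnip3l from -0.55 to 0.093.

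The groups share replicate numbers 1 and 2. Deviations of same-numbered libraries from their group means had an r of 0.000169 and 0.124. With 2 healthy libraries, the deviations of one mirror those of the other. These values therefore cannot show whether same-numbered libraries share a batch, and this was not tested. With the replicate block, 3 genes were called over all genes and 0 members, the median of the members was -0.12, Gpi1 was -0.087 (-0.14 with its pseudogene row) and Higd1a 0.20.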
